A study of Mus musculus with 4 samples.

Results

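The 9 genes described here belong to the machinery that separates helper from cytotoxic T cells. They are the receptor gene Crtam, the transcription factor genes Eomes, Zeb2, Zbtb7b, Runx1 and Runx3, and the co-receptor genes Cd4, Cd8a and Cd8b1. They were chosen by name, with the difference between genotypes already known, so their differences and signal calls are given as a description and without a p-value. They were found as 17 probes whose accession maps to 1 of the 9 symbols, among 45526 genes or unnamed transcripts on the array. Of the 9, 8 passed the filter on low signal, which asked that a gene's probe exceed background clearly on both replicates of WT or of Irf4-/- cells, and 20505 genes or transcripts passed it in all. Cd8a did not pass.

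The cells were naive CD4+ T cells from spleens of male C57BL/6 mice, sorted as CD62L+CD44- and either wild type (WT) or Irf4-/-, a label that names no driver or cell type for the deletion. They had been activated with antibody to CD3e at 1 µg per ml on mitomycin C-treated antigen-presenting cells of the same strain, and on day 2 the live CD4+ fraction was sorted for RNA. Day 2 is the time in the titles and the design text, whereas the treatment protocol in the labels speaks of cultures of 6 or 24 hours, a conflict the sources used here do not settle. Each genotype has 2 samples, each on 1 one-colour array. The labels speak of separate experiments but do not tie a sample to one, so the spread between arrays may be partly technical. The sources used here state neither the age of the mice nor which part of Irf4 was removed.

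CD4 helper and CD8 killer T cells arise from common precursors in the thymus. ThPOK, the zinc finger protein encoded by Zbtb7b, fixes the helper fate, whereas RUNX3 fixes the killer fate, silences Cd4 and is itself held down by ThPOK. Activated helper cells can still take on a killer programme. In that setting CRTAM, an immunoglobulin-family receptor that binds the adhesion molecule CADM1, marks a small fraction of activated CD4 cells, and the T-box factor EOMES drives granzyme and perforin expression.

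Levels are log2 of the processed signal minus the array's 75th percentile, and a difference is the Irf4-/- mean minus the WT mean of such levels. Errors beside differences are limma's moderated standard errors (SE) with n = 2 arrays per genotype. Per array, 25677 to 28725 of 56605 probes were called well above background. Replicate 1 had more of them (WT 28303, Irf4-/- 28725) than replicate 2 (WT 26380, Irf4-/- 25677). The dimmest signal so called was 12.0 and 11.7 on replicate 1 and 18.3 and 19.9 on replicate 2. Probes of Eomes, Zeb2, Runx1, Runx2 and Maf called on 1 of 2 arrays of a genotype were called on replicate 1. The arrays shared 1 slide, with replicate 1 of both genotypes in row 1 and replicate 2 in row 2. Differences are therefore also given within each row. Both WT arrays lay in slide column 1 and neither Irf4-/- array did, so an effect of column and an effect of genotype cannot be told apart. Irf4 itself read 5.03 and 4.74 in WT and 4.23 and 4.04 in Irf4-/- cells. Without the position of the deletion, the remaining signal cannot serve as a check of the labels. The T cell markers fitted the labelled cell type, since 9 of 9 were well above background on every array, and their summed level was 10.60 and 10.48 in WT and 10.64 and 10.59 in Irf4-/- cells.

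Crtam had the largest difference of the 9. Its level was -3.11 and -3.51 on the WT arrays and 0.65 and 0.16 on the Irf4-/- arrays. Both Irf4-/- arrays lay far above both WT arrays, with a gap of 3.27 between the nearest ones. The difference was 3.71 ± 0.26 (SE), or 13.1-fold, and it was 3.76 in slide row 1 and 3.67 in row 2. As processed signal, before scaling, Crtam read 39.1 and 27.0 in WT cells against 465 and 340 in Irf4-/- cells. All 4 spots were well above background, and the dimmest signal counted as such was 12.0 and 18.3 on the WT arrays. Still, Zeb2 at 20.8 on WT replicate 2 was not counted as such, so Crtam in WT cells was dim. Crtam ranked 41 of 20505 from the highest difference, and 0.254% of tested genes differed by as much in either direction. With normexp background correction and quantile scaling the difference was 1.98. It was 3.69 with quantile scaling alone, so its size depended on the normexp step. That step used the median spot signal and added an offset of 50, above the processed Crtam signal on both WT arrays. The parts of the offset and of the background correction in the smaller difference were not tested. In bulk cells a larger share of cells with Crtam transcript and more transcript per cell cannot be told apart.

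**Figure D1:**
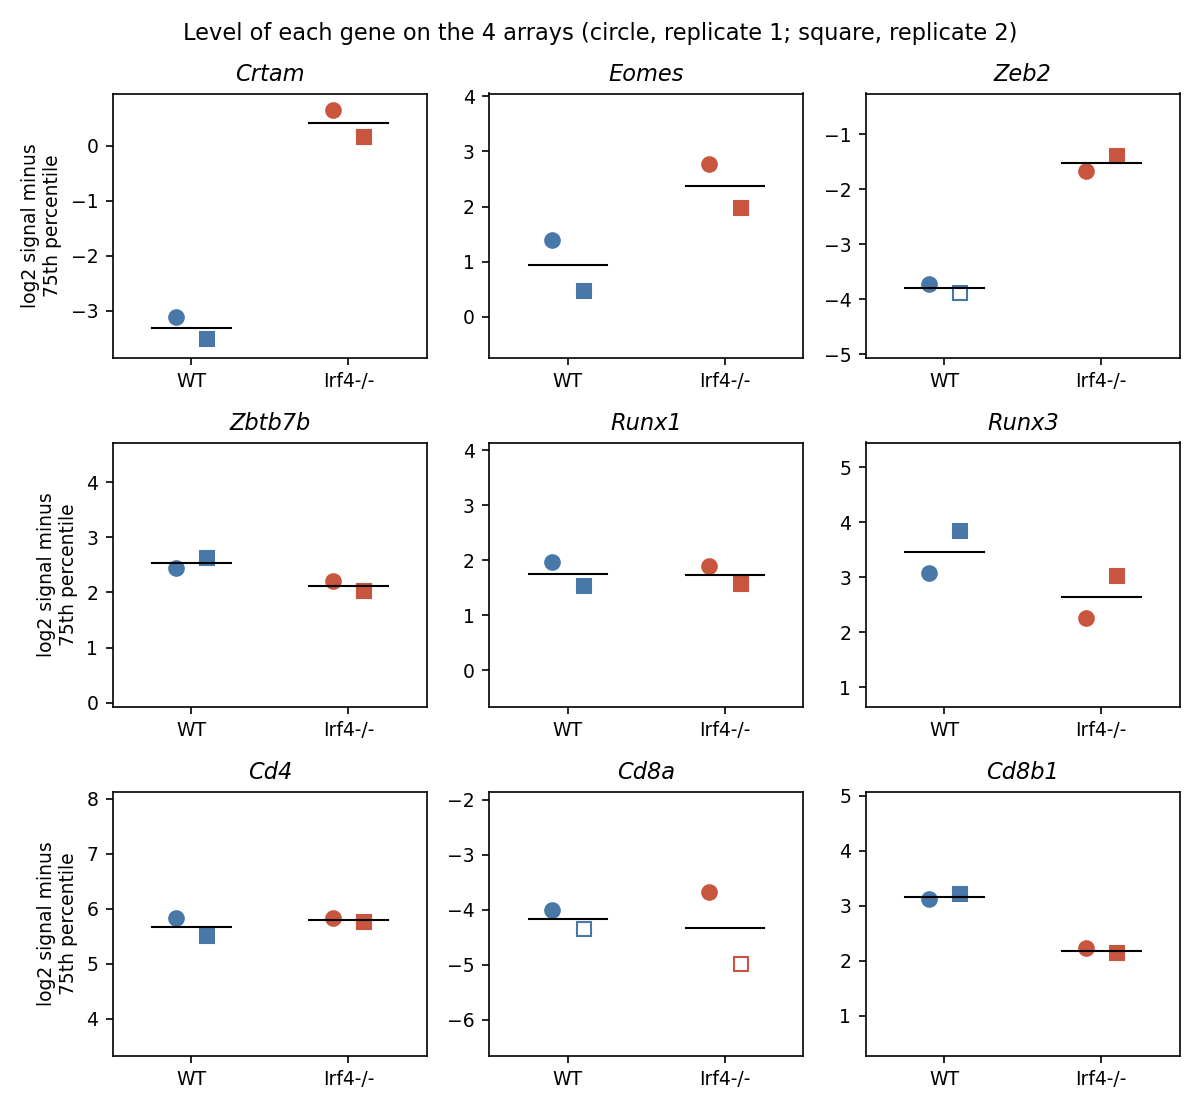
Level (log2 processed signal minus the array's 75th percentile) of the 9 genes on the 2 WT and 2 Irf4-/- arrays, with the mean of each genotype as a bar and open symbols where the probe was not well above background. Crtam and Zeb2 show the widest gaps between genotypes (3.27 and 2.05), Cd8b1 and Runx3 lie lower in Irf4-/- cells, and every panel spans the same number of log2 units.

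Eomes and Zeb2 were also higher without Irf4. EOMES is the T-box factor of killer T cells and NK cells, and ZEB2 is a zinc finger repressor that acts with T-bet in late effector cells. Eomes read 1.40 and 0.47 in WT cells and 2.77 and 1.98 in Irf4-/- cells. Its arrays did not overlap, but replicate 1 was the higher array in both genotypes, by more than the gap of 0.58 between them. The difference was 1.44 ± 0.42 (SE), 1.37 in row 1 and 1.51 in row 2, and it was 0.98 without WT replicate 2 and 1.90 without WT replicate 1. A second, dimmer Eomes probe, well above background on 1 of 2 WT arrays, differed by 1.25.

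Zeb2 read -3.72 and -3.88 in WT cells and -1.66 and -1.39 in Irf4-/- cells. The arrays of a genotype lay close together and the genotypes 2.05 apart. The difference was 2.27 ± 0.19 (SE), or 4.83-fold, with the WT signal well above background on 1 of 2 arrays. A second Zeb2 probe differed by 2.82 with the same pattern of detection. The third was not well above background on any array and gives no value. The difference was 1.55 as the mean of the 3 probes, the undetected one included. It was 0.82 with normexp and quantile scaling, where the offset of 50 also exceeded the processed Zeb2 signal on both WT arrays. Zeb1, the related repressor gene, differed by 0.28 (limma, adjusted p = 0.720).

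The helper and killer lineage factors differed less. Zbtb7b read 2.45 and 2.62 in WT cells and 2.21 and 2.02 in Irf4-/- cells. Both Irf4-/- arrays lay below both WT arrays, the nearest by 0.24, and the difference was -0.42 ± 0.18 (SE), or 1.34-fold lower. Of all tested genes 20.6% differed by at least that much in either direction.

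Runx3 read 3.08 and 3.84 in WT cells and 2.25 and 3.02 in Irf4-/- cells. Replicate 2 was the higher array in both genotypes, and the genotypes were separated by 0.06 at the nearest arrays. Within rows the differences were -0.83 and -0.82, and over all arrays the difference was -0.82 ± 0.38 (SE). It was -1.21 without Irf4-/- replicate 2, -1.20 without WT replicate 1, and -0.44 without either WT replicate 2 or Irf4-/- replicate 1. A second Runx3 probe differed by -0.44, with overlapping genotypes.

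Runx1 encodes the RUNX factor that represses Cd4 in early thymocytes. Its brightest probe read 1.97 and 1.53 in WT cells and 1.90 and 1.56 in Irf4-/- cells. The genotypes overlapped, and the difference of -0.02 ± 0.24 (SE) had no settled sign, since it was 0.01 with the percentile taken over probes detected on all arrays and -0.13 with median scaling. A second probe of the same accession differed by 0.11. The probe assigned to another transcript, NM_009821, read -3.15 and -3.25 in WT cells and -3.91 and -4.31 in Irf4-/- cells, a difference of -0.91. It was well above background on both WT arrays and on 1 of 2 Irf4-/- arrays. The probes for Runx1 transcripts thus gave unlike values, and none stands for the gene as a whole. Cbfb, the shared partner subunit of RUNX factors, differed by -0.05 (limma, adjusted p = 0.983).

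Several of the 9 genes have a RefSeq start-site window, and these were searched for the DNA words of the factors named above. The windows cover the 250 bases before each start (GRCm38.p6). They were found for Zeb2, Zbtb7b, Runx3, Runx1, Cd8a and Eomes, 12 windows in all, and not for Crtam, Cd4 and Cd8b1. Eomes is shown for its interferon regulatory factor word, Runx3 for its paired RUNX words, and Zbtb7b for a word of the kind bound by ETS and IRF factors together. Capitals mark matches to any of the 8 words searched, on either strand.
Eomes, chr9:118477939-118478188, plus strand: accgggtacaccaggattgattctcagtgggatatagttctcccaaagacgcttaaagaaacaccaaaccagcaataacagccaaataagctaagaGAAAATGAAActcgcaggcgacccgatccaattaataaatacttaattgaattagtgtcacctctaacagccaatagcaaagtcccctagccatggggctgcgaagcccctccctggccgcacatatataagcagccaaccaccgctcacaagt
Runx3, chr4:135120395-135120644, plus strand: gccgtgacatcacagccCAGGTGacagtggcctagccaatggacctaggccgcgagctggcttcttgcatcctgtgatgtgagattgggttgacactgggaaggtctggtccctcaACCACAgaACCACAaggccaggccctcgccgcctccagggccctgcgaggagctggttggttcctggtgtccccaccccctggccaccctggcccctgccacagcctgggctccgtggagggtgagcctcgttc
Zbtb7b, chr3:89393379-89393628, minus strand: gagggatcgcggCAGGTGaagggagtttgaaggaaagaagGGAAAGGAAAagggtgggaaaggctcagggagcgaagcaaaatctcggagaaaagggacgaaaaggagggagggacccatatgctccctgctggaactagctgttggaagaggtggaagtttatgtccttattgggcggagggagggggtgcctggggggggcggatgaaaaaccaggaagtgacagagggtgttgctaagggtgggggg

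The Eomes window holds 1 match to the IRF word, GAAA and again GAAA 2 bases on, which 2.98% of all 32851 windows of this length hold. The upstream Runx3 window holds 2 matches to the RUNX word TGTGGT, read as ACCACA and 2 bases apart, and 14.0% of all windows hold at least 1. It also holds the ZEB-type E-box CACCTG, read as CAGGTG, as do the upstream windows of Zbtb7b and Runx1, against 17.2% of all windows. The joint ETS and IRF word, GGAA and then GAAA 2 bases on, matched the upstream Zbtb7b window and, at 2 places, the Cd8a window, where 2.30% of windows hold it. A second, inner Zbtb7b window holds TGTGGT, and the innermost Zeb2 window holds the AP-1 word TGANTCA at 2 places (6.75% of all windows). No member window matched the T-box word GGTGTGA or either joined AP-1 and IRF word, GAAA directly before TGANTCA and TTTC 4 bases before TGANTCA. The ETS and IRF word and the IRF word can overlap in sequence, as can TGANTCA and the joined words. A match describes letters in this window and is not evidence of binding.

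Cells had been sorted on CD4, and Cd4 read 5.83 and 5.51 in WT and 5.82 and 5.75 in Irf4-/- cells. The genotypes overlapped, with a difference of 0.11 ± 0.19 (SE) for the brightest probe and 0.02 for the second. The sign of the former turned (-0.04) without WT replicate 2.

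Cd8b1, which encodes the beta chain of the CD8 heterodimer, read 3.12 and 3.21 in WT cells and 2.23 and 2.14 in Irf4-/- cells. It was well above background on all 4 arrays. Arrays of a genotype differed by less than 0.1, and the difference was -0.98 ± 0.17 (SE), or 1.97-fold lower without Irf4. Cd8a, which encodes the alpha chain, read -4.00 and -4.34 in WT cells and -3.67 and -4.99 in Irf4-/- cells by its brighter probe. That probe was well above background on replicate 1 of each genotype and on neither replicate 2, where the dimmest signal so called was higher. The dimmer Cd8a probe was not well above background on any array. No difference in Cd8a is therefore given, and the 2 chains of CD8 were detected unequally in these CD4+ cells. Whether the single Cd8b1 probe also binds another transcript was not tested.

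**Figure D2:**
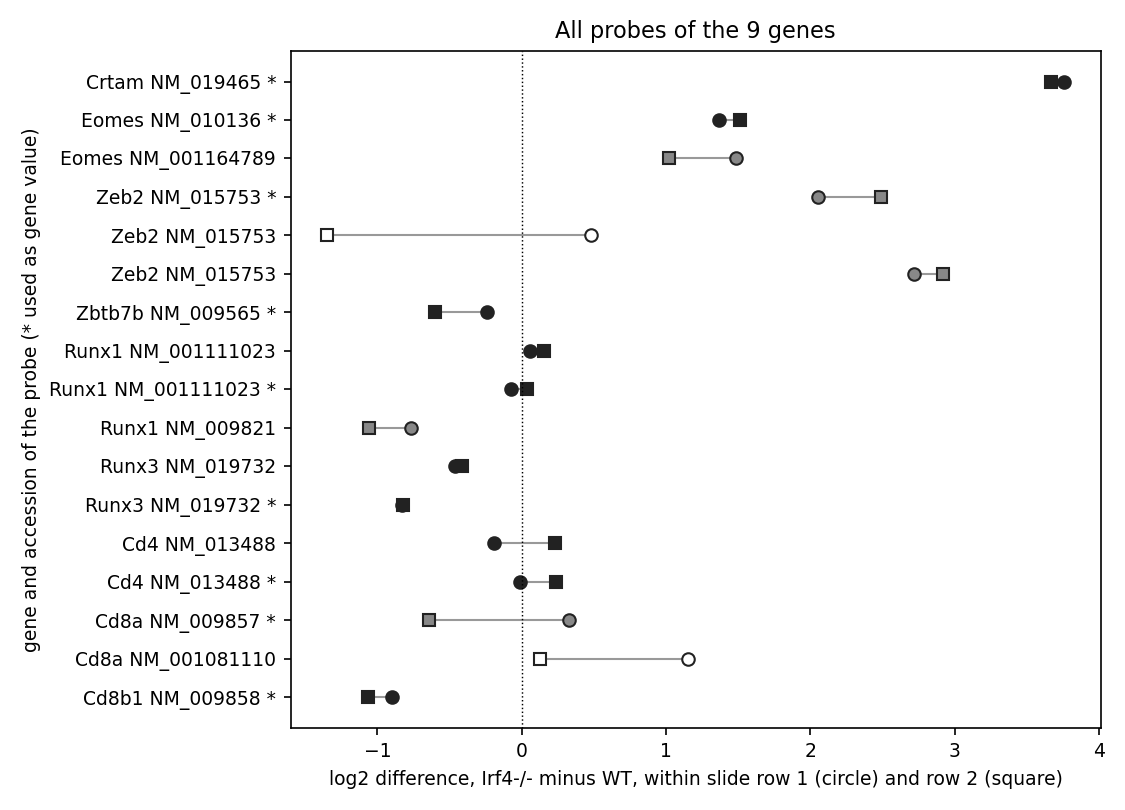
Log2 difference (Irf4-/- minus WT) within slide row 1 (circles) and row 2 (squares) for the 17 probes of the 9 genes, black where well above background on all 4 arrays, grey on some and white on none. The Crtam probe and the measured Eomes and Zeb2 probes lie to the right in both rows, Runx3, Zbtb7b and Cd8b1 to the left, and the probes of Runx1 and of Zeb2 differ among themselves.

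Of the 8 tested genes, 3 had both Irf4-/- arrays above both WT arrays (Crtam, Eomes and Zeb2) and 3 had both below (Zbtb7b, Runx3 and Cd8b1). Among all tested genes 39.2% did not overlap, 17.9% lying fully above and 21.3% fully below. The fit across all genes called Crtam and Zeb2 higher at an adjusted p under 0.05 and no member lower, where 0.493% of all tested genes were called higher and 0.244% lower. Since the members were picked with this comparison known, nothing is read from these counts. Cd8b1 was also called, as lower, with normexp and quantile scaling, with trend and robust settings and with median scaling, and Eomes, as higher, with median scaling. The 2 calls were lost with quantile scaling, where 5 genes in all were called, and in 5 settings under which no gene was called: replicate number (equal to slide row) as a block, the percentile over probes detected on all arrays, no filter, and leaving out either WT array. The Crtam difference in those 6 settings ran from 3.51 to 3.91. The Zeb2 call was also lost with the mean of all probes, which takes in the Zeb2 probe not well above background on any array. Zeb2 was not tested when signal on all 4 arrays was required. Zeb2 passed the filter on low signal through the Irf4-/- arrays alone, so its call rests partly on that choice. With median scaling all tested members had the same SE, 0.36, so their own spread between arrays did not enter the calls. The Eomes call was found in that setting alone.

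**Figure D3:**
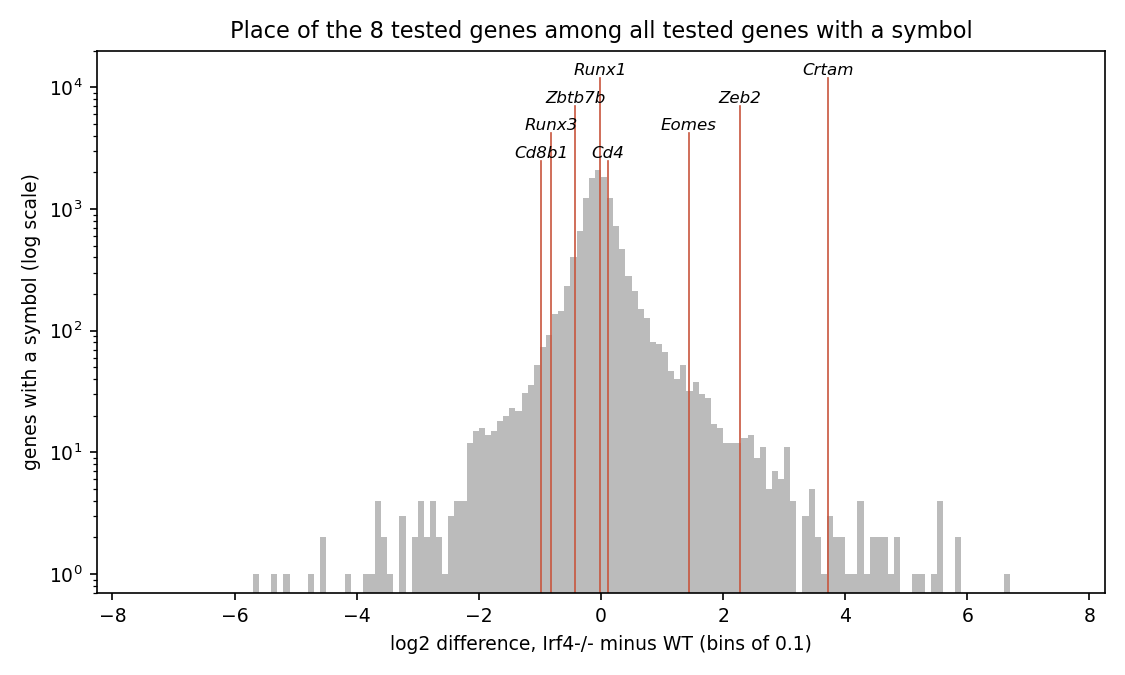
Distribution of the log2 difference (Irf4-/- minus WT) over the tested genes with a symbol, on a log count axis, with the 8 tested lineage genes marked by lines. Crtam at 3.71, Zeb2 at 2.27 and Eomes at 1.44 lie in the sparse right tail, while Cd4 at 0.11 and Runx1 at -0.02 lie at the peak.

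The genes whose 4 array values followed Crtam most closely were found by the Euclidean distance between values centred on each gene's mean, over 12028 other genes well above background on every array. The nearest were Bdh2 (distance 0.43), Map2 (0.61), Cd160 (0.75), Fam160a1 (0.75) and Srgap3 (0.79), and 10 genes lay within a distance of 1. Cd160, an immunoglobulin-family receptor gene of killer lymphocytes, read -2.33 and -3.22 in WT and 0.47 and 0.83 in Irf4-/- cells. Map2, a microtubule-associated gene, read -4.26 and -3.87 in WT and -0.03 and -0.85 in Irf4-/- cells. Zbtb7b had many close neighbours, 279 within a distance of 0.2, the nearest being Ticam1 (0.04), Rhbdf2 (0.05), C7 (0.06), Abca3 (0.07) and Tnks1bp1 (0.07). This likeness rests on 4 arrays and on the contrast that chose the members.

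Of 10 tested genes next to the members on the chromosome, limma called 1 lower and 0 higher, against 0.244% and 0.493% of all tested genes. This selection, the nearest protein-coding gene on each side in RefSeq order, was added after the values of the 9 genes had been seen. Lag3, the inhibitory receptor gene beside Cd4, read 4.40 and 4.33 in WT cells and 2.37 and 2.11 in Irf4-/- cells, a decrease of 2.13 on the log2 scale (limma, adjusted p = 0.0318) beside a Cd4 difference of 0.11. Limma called Lag3 in 8 of 14 alternatives. The call was lost with the replicate block (limma, adjusted p = 0.0967) and without either WT array. It was also lost with quantile scaling, the percentile over probes detected on all arrays and no filter. Gpr162, on the other side of Cd4, differed by -0.37 (limma, adjusted p = 0.629). Ubash3b, which encodes a phosphatase that dampens T cell receptor signalling and lies beside Crtam, read 1.80 and 1.77 in WT and 2.96 and 3.17 in Irf4-/- cells, a difference of 1.28 that did not pass (limma, adjusted p = 0.0668). Jhy, on the other side of Crtam, was not well above background on any array. Golga4 beside Eomes differed by -0.15, Gtdc1 beside Zeb2 by 0.45, and Clic4 beside Runx3 by -0.50, without passing (limma, adjusted p = 0.911, 0.559 and 0.439).

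Other regulators of the helper and killer split did not pass the test singly in the fit across all genes. Of 20 lineage regulator genes tested, limma called 0 in either direction, against 0.736% of all genes. At so low a share, 0 of 20 says nothing about the list. In 14 alternatives limma called Tox in 3, Myb, Tcf3 and Id2 in 2 each, and Tbx21 and Prdm1 in 1 each. These were normexp and quantile scaling, median scaling, or trend and robust settings. Of the 20, 8 differed upwards and 12 downwards. An unadjusted p under 0.05 was found for 8 of the 20 (Runx2, Patz1, Tox, Satb1, Myb, Tcf3, Tbx21 and Id2) and for 2331 of all genes, or 11.4%. Their median difference was -0.14, against -0.02 over all tested genes. The largest positive differences were those of Tox, an HMG-box factor needed for CD4 lineage development, at 1.60 ± 0.33 (SE; limma, adjusted p = 0.151), Runx2 at 1.13 (well above background on 1 of 2 WT arrays) and the progenitor factor gene Myb at 0.79. The largest negative ones were those of Prdm1, Tbx21, which encodes the T-box factor T-bet (-0.96 ± 0.18 SE, limma adjusted p = 0.117), and the E-protein gene Tcf3 (-0.95). Prdm1 read -2.30 and 0.20 in WT and -3.03 and -2.83 in Irf4-/- cells, so its difference of -1.88 (limma, adjusted p = 0.506) rested on 1 WT array: it was -0.63 without WT replicate 2 and -3.13 without WT replicate 1. Tbx21 read 4.58 and 4.80 in WT and 3.72 and 3.75 in Irf4-/- cells, so the T-box genes Eomes and Tbx21 lay on opposite sides of 0. Gata3, a factor upstream of Zbtb7b, differed by -0.18 (limma, adjusted p = 0.854).

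Of 24 tested cytotoxic lineage effector genes, limma called Xcl1, Cd160, Nkg7 and Tnfsf10 higher, 0 lower, and 20 did not pass, where 0.493% of all tested genes were called higher and 0.244% lower. Of the 24, 13 (54.2%) had an unadjusted p under 0.05, against 11.4% of all tested genes. The lists were chosen with earlier results of these data known, so nothing is read from such counts. The median difference was 0.17, against -0.02 over all tested genes, with 14 positive and 10 negative. All 4 calls were lost with the replicate block and without either WT array. With the block, limma's adjusted p was 0.0967 for Xcl1, 0.119 for Nkg7, 0.130 for Cd160 and 0.136 for Tnfsf10. The calls were also lost with quantile scaling, the percentile over probes detected on all arrays and no filter. Limma called Cd160 in 8 of 14 alternatives, Nkg7 and Tnfsf10 in 7 of 14, and Xcl1 in 7 of the 13 that tested it. The chemokine gene Xcl1 was below background in WT cells and at least 11.9-fold higher without Irf4 (limma, adjusted p = 0.0293). It passed the filter on low signal through the Irf4-/- arrays alone, so its place among the called genes rests partly on that choice. Nkg7, a granule membrane protein gene, read 2.39 and 3.29 in WT and 5.71 and 5.69 in Irf4-/- cells (difference 2.86; limma, adjusted p = 0.0493). Tnfsf10, which encodes the death ligand TRAIL, differed by 2.15 (limma, adjusted p = 0.0456).

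Perforin and several granzyme genes did not pass, and Gzmk was not tested. Prf1, which encodes perforin, differed by 0.44, Gzmb by 0.39 and Gzmc by 0.06, without passing (limma, adjusted p = 0.496, 0.965 and 0.994). Gzmb read 1.61 and 4.41 in WT cells, a spread wider than its difference between genotypes, and 3.49 and 3.30 in Irf4-/- cells. The largest negative differences were those of Gzma (-2.19), the receptor gene Slamf7 (-1.95) and the chemokine receptor gene Cxcr3 (-1.33), with limma adjusted p between 0.116 and 0.250. Gzma was -1.33 without WT replicate 2 (SD over the WT arrays 1.22), and Cxcr3 was -0.82 without Irf4-/- replicate 2 (Irf4-/- arrays at 2.38 and 1.36). Cx3cr1, a receptor gene of late effector cells, was well above background on both Irf4-/- arrays and on neither WT array, at least 2.49-fold higher without passing (limma, adjusted p = 0.0622), and it was picked after its values were seen. Its second probe was not above background on any array.

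Of 16 tested helper lineage effector genes, limma called Il6ra lower and 0 higher, and 15 did not pass, against 0.244% of all tested genes lower and 0.493% higher. Of the 16, 9 (56.2%) had an unadjusted p under 0.05, against 11.4% of all tested genes. The median difference was -0.43, against -0.02 over all tested genes, with 4 positive and 12 negative. Il6ra, the interleukin 6 receptor alpha chain gene, read 4.28 and 3.86 in WT and 1.95 and 1.79 in Irf4-/- cells, a difference of -2.19 ± 0.22 (SE; limma, adjusted p = 0.0392). That call too was lost with the replicate block (limma, adjusted p = 0.0967) and without either WT array. It was also lost with quantile scaling, the percentile over probes detected on all arrays and no filter, and was held in 8 of 14 alternatives. Il21, by its brighter probe, was not well above background on either Irf4-/- array and at least 8.92-fold lower there, without passing (limma, adjusted p = 0.121). Its other probe, well above background on 1 of 2 arrays of each genotype, gives no settled value. Maf, well above background on 1 of 2 Irf4-/- arrays, differed by -2.99 (limma, adjusted p = 0.144). Rora (1.16), the surface gene Cd5 (0.86) and Il6st (0.18) had the largest positive differences, without passing. Cd40lg, the helper ligand gene, was well above background on 1 Irf4-/- array and no WT array and was not tested.

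Ligand and partner genes of CRTAM were examined as a 4th list. Of 17 genes on the array 11 were tested and limma called 0, against 0.736% of all tested genes, a share so low that 0 of 11 says nothing about the list. Of the 11, 3 (Pvr, Cd96 and Cd226, 27.3%) had an unadjusted p under 0.05, against 11.4% of all tested genes. The median difference was -0.04, against -0.02 over all tested genes. Cadm1, the ligand of CRTAM, was not well above background on any array, nor were Cadm3, Nectin1, Nectin3 and Nectin4. Scrib, Cdc42 and Prkcz, whose products form the polarity complex recruited by CRTAM, were well above background throughout and differed by -0.13, -0.06 and 0.12 (limma, adjusted p = 0.932, 0.976 and 0.955). Cd96, Cd226 and Tigit, receptor genes for related nectin-type ligands, differed by 1.90, 1.14 and 0.58 (limma, adjusted p = 0.0684, 0.116 and 0.520). Their ligand gene Pvr differed by -0.51, and the polarity genes Dlg1 and Pard6a by -0.16 and -0.14 (limma, adjusted p = 0.346, 0.887 and 0.913).

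**Figure D4:**
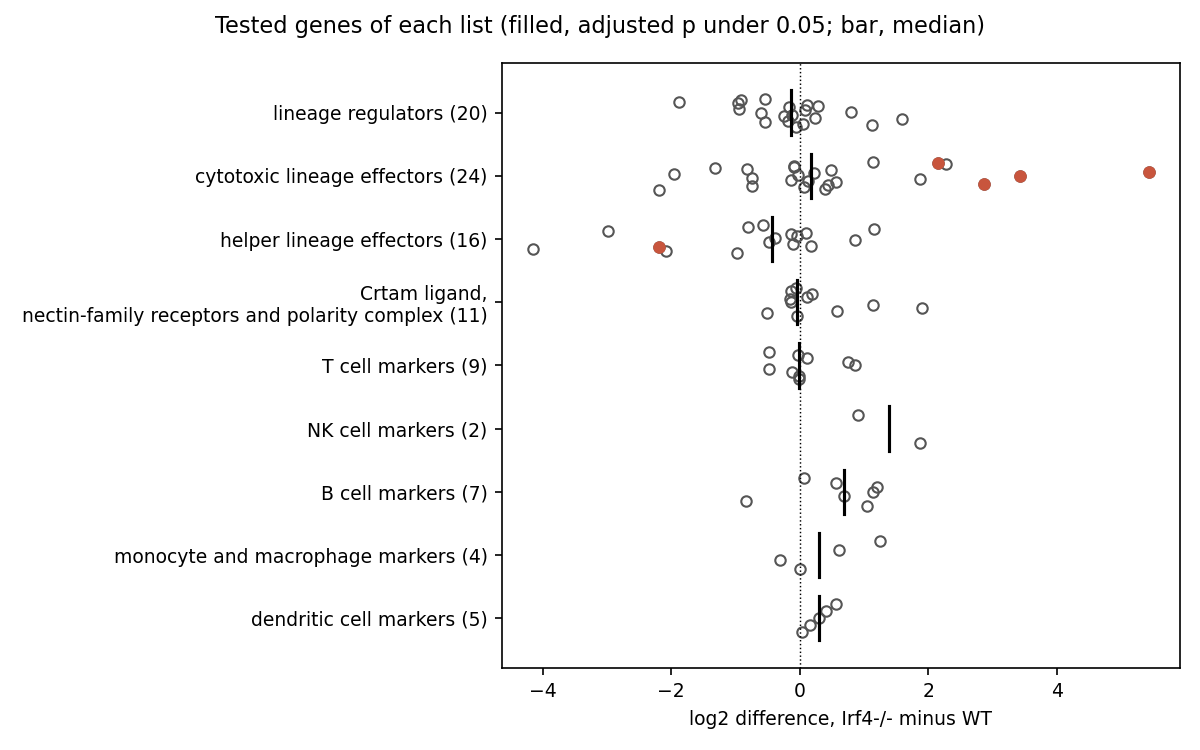
Log2 difference (Irf4-/- minus WT) of each tested gene in the 4 pathway lists and in lists of cell type markers, filled where limma's adjusted p was under 0.05, with each list's median as a bar and its number of tested genes in parentheses. The 4 called cytotoxic effector genes lie to the right and Il6ra to the left, and no list lies wholly on 1 side except the few tested NK cell and dendritic cell markers.

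Crtam, Eomes and Zeb2 are also expressed by NK cells, and Zeb2 by myeloid cells, so markers of other cells are given beside them. Of 8 NK cell markers, 4 (Ncr1, Klre1, Klra4 and Klra9) were not well above background on any array, and Tyrobp and Fcer1g, which myeloid cells also express, were tested. Klrb1c and Klra8 did not pass the filter on low signal, though each had a probe well above background on some array. Markers with such a probe numbered 3 and 3 on the WT arrays and 4 and 2 on the Irf4-/- arrays. Tyrobp read -2.23 and -2.76 in WT and -0.78 and -0.47 in Irf4-/- cells, and Fcer1g differed by 0.90, neither passing (limma, adjusted p = 0.0650 and 0.259). The summed level of the NK list was -0.77 and -1.12 in WT and 0.37 and 0.24 in Irf4-/- cells.

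Of 9 monocyte and macrophage markers, Lyz2, Adgre1, Fcgr1 and Cybb were not well above background on any array. Itgam, Csf1r, Cd68 and Mpeg1 were well above background on every array. Itgam read 2.81 and 3.20 in WT and 2.64 and 2.76 in Irf4-/- cells. Csf1r read 2.09 and 1.55 in WT and 2.10 and 1.56 in Irf4-/- cells. Second probes of Itgam and Csf1r were far dimmer. The list's summed level ran from 3.59 to 3.67 in WT and from 3.49 to 3.54 in Irf4-/- cells, and Mpeg1 had its largest difference, 1.25 (limma, adjusted p = 0.312). For 9 dendritic cell markers the sums were 6.33 and 6.67 in WT and 6.50 and 6.93 in Irf4-/- cells, set largely by Siglech, whose second probe was not above background on any array, with Xcr1, Clec9a and Itgax at background. For 9 B cell markers the sums were 1.49 and 0.44 in WT and 2.38 and 0.98 in Irf4-/- cells, higher in row 1 of both genotypes, with Ebf1 at background. No marker of these 3 lists was called, with 4, 5 and 7 tested in this order, against 0.736% of all tested genes. At so low a share, the lack of calls says nothing about these lists. Of the markers for NKT and gamma delta T cells 2 of 4 were on the array, Zbtb16 (-0.24) and Sox13 (0.01). The part of other cells in the differences of Crtam, Eomes and Zeb2 was not tested.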

How the data were processed

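Transcript levels were measured in 4 samples with one-colour (Cy3) Agilent arrays. Per the file headers, the authors' spot intensity comes from Agilent's scanner software, Feature Extraction 11.0.1.1, with background already subtracted, whereas the submitters' processing notes name 9.1. The deposited log2 table equals scanner values scaled to the 75th percentile, within a shift of 0.03, and centred per probe (column medians -0.16, 0.10, -0.11 and 0.12), so it served as an alternative.

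Control spots and outlier spots were left out and spots averaged per probe. Accessions of 32919 of 56468 probes matched symbols of GRCm38.p6 (the array design uses mm9, so gene coordinates are not given). A gene took its probe with the highest mean. All genes were fitted with limma 3.58.1 (R 4.3.3), Benjamini-Hochberg adjusted, after the script was tested on simulated data. "At least" folds divide the brighter mean by the dimmest detectable signal of the other genotype's arrays, or by the probe's own where that is higher. Genes named beside the members are those called in each pathway list and the 3 largest differences each way. Zeb1, Cbfb, Gata3, Prf1, Gzmb, Gzmc, Cx3cr1, Cd40lg, Cadm1, Scrib, Cdc42 and Prkcz were added for their roles after their values were seen. The members and lists were chosen with earlier results of these data known. Normexp (offset 50) used the median spot signal, since the planned mean is not in the files used here. The number of arrays limits precision.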

Additional observations from a re-analysis of the deposited data

How the results depend on the processing

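Over 14 alternatives, Crtam, Eomes, Zbtb7b, Runx3 and Cd8b1 kept the sign of their difference in 14 each. Zeb2 kept it in the 13 that tested it, while Runx1 changed sign in 3 and Cd4 in 1. Many alternatives could not change a sign. No filter, detection on all 4 arrays, trend and robust settings and the replicate block leave the difference itself unchanged. So does the mean of all probes for genes with 1 probe (Crtam, Zbtb7b and Cd8b1). Leaving out 1 array cannot turn the sign where genotypes do not overlap. Kept signs therefore say little about robustness. Limma called 151 genes, 2 members (Crtam and Zeb2) and 5 genes of the 4 pathway lists. It called 423 genes, 3 members (Cd8b1 added) and 15 list genes with normexp and quantile scaling, 1042, 4 members (Eomes and Cd8b1 added) and 17 list genes with median scaling, 797, 3 members (Cd8b1 added) and 18 list genes with trend and robust settings, and 260 genes from the authors' value table. With quantile scaling it called 5 genes, 0 members and 0 list genes (2512 genes at an unadjusted p under 0.05). It called 0 genes, 0 members and 0 list genes with the percentile over probes detected on all arrays (2348 unadjusted) or without a filter (2099). Members called fell to 1 (Crtam) with the mean of all probes or with detection on all 4 arrays. With the replicate block limma called 0 genes, 0 members and 0 list genes (3195 unadjusted). Across genes, arrays that share a number deviated together (r = 0.348), which with 2 pairs does not establish pairing. Leaving out 1 array gave 0 to 487 genes, 0 to 2 members and 0 to 11 list genes, with 0 of each without WT replicate 1 (1864 unadjusted) or 2 (1678). A lone array is then assumed to vary like the other genotype. The cause of these changes was not tested. Median scaling moved the median of all genes to -0.13. It also gave all tested members the same SE, 0.36, so a member's own spread between arrays did not enter its call. Zeb2 in WT cells, Cd8a and the second Eomes probe lie near the limit of detection, and Crtam in WT cells lies not far above it.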
